A study of Mus musculus with 4 samples.

Results

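The integrated stress response regulators described here are 10 genes of the 22138 in the deposited table: Atf4, Ddit3 and genes that their protein products regulate, matched by symbol. Each was found once, and all 10 passed a filter on low values (mean RPKM of 0.5 or more). RPKM is the number of mapped reads scaled to gene length and library size. The genes were chosen by symbol with their RPKM values in these libraries known, that is, selected on the change between the groups and on the difference between the control libraries, so their levels and changes are a description and are not tested as independent evidence. RNA was sequenced from TT2, a line of mouse embryonic stem cells that the labels give as female and C57BL/6xCBA. Such cells derive from the early embryo and are pluripotent. They grew in serum and LIF, the cytokine that maintains that state, with no feeder layer. All 4 cultures were transfected with siRNA at 100 nM and again 24 hours later at 50 nM, and were harvested about 72 hours after that. Control siRNA (n = 2) was compared with siRNA against Hnrnpk (n = 2), the gene of the RNA- and DNA-binding protein hnRNP K, which the series title links to silencing by SETDB1. The depletion was partial and transient in a single cell line, and the siRNA sequences were not used here.

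The integrated stress response begins when 1 of several kinases phosphorylates the translation factor eIF2. General protein synthesis then falls, while the mRNA of ATF4, a basic leucine zipper transcription factor, is translated more. ATF4 activates genes of amino acid supply and, under lasting stress, CHOP (encoded by Ddit3), which is linked to cell death. Feedback comes from GADD34 (Ppp1r15a), which directs a phosphatase to eIF2, and from the pseudokinase TRIB3. Transcript levels do not measure eIF2 phosphorylation or ATF4 protein.

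Promoter sequence from RefSeq (GRCm38.p6, the 250 bases before to 50 after each start) was matched by symbol for all 10 genes, with 11 promoters because Atf5 has more than 1. It was searched on both strands for TGATGCAA, the core of the C/EBP-ATF response element that ATF4 binds as a heterodimer with C/EBP proteins. Of the 11 promoters, 3 held it, those of Atf3, Chac1 and Nupr1, against 0.895% of the 32851 promoters of the same length in the table. In each it lay on the strand opposite to the gene, so it reads TTGCATCA in the stretches below, beginning 110 bases before the start in Atf3 and Nupr1 and 193 bases before it in Chac1. The looser form TGATGNAAN, which includes those matches, occurred in 4 of the 11, Trib3 being added with a match after its start, against 3.95% of all promoters. The palindrome TGACGTCA, the cyclic AMP response element, occurred in Ppp1r15a, 12 bases before the start, against 1.79% of all promoters. The endoplasmic reticulum stress element, the site of ATF6, was in none of the 11 and in 0.119% of all promoters. These stretches are shown because they carry the matched letters, in capitals; a match is not evidence of binding. Per GENCODE M21, the Atf3 stretch (chr1:191183396-191183483, minus strand) lies in an intron of the longest Atf3 transcript. The Chac1 stretch (chr2:119351009-119351096, plus strand) and the Ppp1r15a stretch (chr7:45526269-45526320, minus strand) lie upstream of those genes, and the Nupr1 stretch (chr7:126625562-126625591, minus strand) lies within an exon of an annotated Nupr1 transcript.
Atf3: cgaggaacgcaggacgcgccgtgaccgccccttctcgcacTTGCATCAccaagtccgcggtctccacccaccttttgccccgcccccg
Chac1: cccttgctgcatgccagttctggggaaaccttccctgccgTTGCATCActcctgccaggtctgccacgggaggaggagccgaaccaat
Nupr1: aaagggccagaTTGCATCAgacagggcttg
Ppp1r15a: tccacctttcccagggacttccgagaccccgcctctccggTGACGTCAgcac

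The siRNA target itself, Hnrnpk, had 231 ± 6.69 RPKM in the controls and 69.2 ± 1.78 RPKM in the depleted cells (SD, n = 2 each), in the direction of the labels (log2 change -1.73, limma adjusted p = 6.59e-08). Relative depth, read from the commonest step between low values, was 0.982, 0.891 and 0.882 in control replicate 2 and Hnrnpk siRNA replicates 1 and 2 against 1 in control replicate 1. By the same steps the lowest value among the regulators, Atf3 in control replicate 1, corresponded to about 391 units for a transcript of 1984 bases, where a unit is a read or a read pair. Markers fixed for undifferentiated cells summed to 3935 to 4094 RPKM in the control libraries and 4699 to 5022 RPKM in the Hnrnpk siRNA libraries. Of these 10 markers, 2 were called higher (Nanog and Dppa5a) and 4 lower (Sox2, Tdgf1, Utf1 and Fgf4), with a median log2 change of -0.15. Dppa5a, at 1320 and 1276 against 2164 and 2451 RPKM, made up more of the difference in the sum than any other marker of the list. Trophectoderm markers summed to 37.4 and 41.7 against 86.2 and 89.9 RPKM, primitive endoderm markers to 21.8 and 20.9 against 62.7 and 64.6 RPKM, and markers of the state resembling the cleavage-stage embryo to 0.457 and 0.438 against 21.1 and 24.2 RPKM. All 6 tested trophectoderm markers, 6 of 7 of primitive endoderm and all 4 of the cleavage-stage state were called higher. Beside these marker counts, 32.2% of all 12486 genes tested were called higher and 35.0% lower. Of the 8 fibroblast markers, which feeder cells would carry, Col1a2, Col3a1, Dcn, Lum and Postn were each below 0.1 RPKM in every library. The list summed to 8.34 to 9.75 against 4.29 to 4.51 RPKM. Its 2 tested markers were both called lower. Thy1 was at 6.90 and 5.20 against 2.22 and 2.28 RPKM, and Col1a1 at 2.46 and 2.68 against 1.73 and 1.86 RPKM. The part of these cell states in the levels below was not tested, and fewer cells of a type cannot be told apart from less RNA per cell.

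Ddit3 was far higher after Hnrnpk siRNA, while Atf4 was not separated between the groups. Atf3, Nupr1, Trib3, Sesn2 and Ppp1r15a stood above both control libraries by smaller amounts, and Atf5, Cebpb and Chac1 overlapped. In all, both Hnrnpk siRNA libraries exceeded both control libraries in 6 of the 10 genes, as in 41.2% of the 12486 genes tested, and the groups overlapped in 4, as in 15.3%. In 0 of the 10 were both below both controls, as in 43.5% of genes tested. Limma's fit across all genes, with Benjamini-Hochberg adjustment, called the 6 higher at an adjusted p under 0.05, where 32.2% of all genes tested were called higher. It called 0 lower (0 at an unadjusted p under 0.05), where 35.0% were called lower and 67.2% in either direction. The median log2 change of the 10 was 0.61, beside -0.015 over all genes tested. The exact permutation test over 2 against 2 libraries has 0.333 as its smallest p, so the calls rest on the spread that limma pools over genes.

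**Figure D1:**
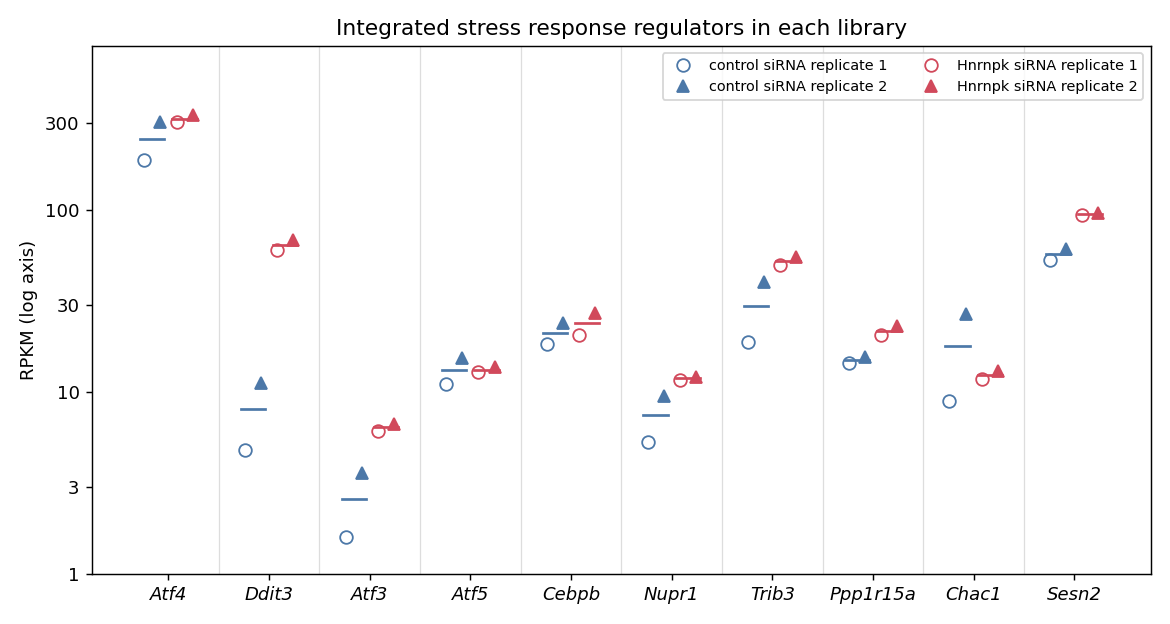
RPKM (log axis) of the 10 regulators in each of the 4 libraries; short lines are group means. Ddit3 is at 4.82 and 11.2 RPKM with control siRNA and at 60.0 and 68.1 RPKM after Hnrnpk siRNA, and control replicate 2 lies above control replicate 1 in every gene.

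Atf4 (ENSMUSG00000042406, GRCm38 chromosome 15, 80255184 to 80257541, plus strand) encodes the central transcription factor of the response. It stood at 188 and 306 RPKM in control replicates 1 and 2 and at 305 and 333 RPKM in Hnrnpk siRNA replicates 1 and 2. Control replicate 2 lay slightly above Hnrnpk siRNA replicate 1, so the groups overlapped, and control replicate 1 alone was low. The log2 change was 0.41 (SE 0.17) and was not called. It was 0.058 without control replicate 1, and it was 0.76 and called without control replicate 2. Atf4 had the highest level of the 10 in both groups.

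Ddit3 (ENSMUSG00000025408, chromosome 10, 127290774 to 127296288, plus strand) encodes CHOP, a transcription factor downstream of ATF4. It stood at 4.82 and 11.2 RPKM with control siRNA and at 60.0 and 68.1 RPKM after Hnrnpk siRNA. Both Hnrnpk siRNA libraries were several times above the higher control, and the controls themselves differed by a ratio of 2.33. The means were 8.01 ± 4.51 and 64.0 ± 5.69 RPKM (SD, n = 2 each), a ratio of 7.99, with a log2 change of 3.03 (SE 0.27). The mean after Hnrnpk siRNA was 13.3 times control replicate 1 and 5.72 times control replicate 2. By log2 change Ddit3 ranked 15 among the 12486 genes tested. Its order among the regulators' levels moved from 8 of 10 to 3 of 10. A second Ddit3 identifier, absent from the deposited values, shares 105 of its exonic bases (6.13%). Its exons also overlap 68 bases (3.97%) with Mars on the opposite strand. Mars was at 118 to 126 RPKM in all 4 libraries (log2 change -0.016, not called). Any Mars reads counted there would weigh most on the low control values of Ddit3, which was not tested. Whether the counting used strand is not stated in the labels. Exons of Atf5 and Ppp1r15a overlap opposite-strand genes by 82 bases (Il4i1, 3.90 to 4.16 RPKM) and 12 bases (Tulp2, 1.19 to 2.49 RPKM).

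The other basic leucine zipper factors differed from each other. Atf3 (ENSMUSG00000026628, chromosome 1, 191170296 to 191218039, minus strand), induced by ATF4 and by other stress signals, was at 1.59 and 3.56 RPKM with control siRNA and at 6.12 and 6.65 RPKM after Hnrnpk siRNA. Both Hnrnpk siRNA libraries lay above both controls, with a log2 change of 1.24 (SE 0.24), which was 0.76 without control replicate 1 and 1.72 without control replicate 2. Atf5 (ENSMUSG00000038539, chromosome 7, 44812256 to 44816658, minus strand), whose mRNA is translated under stress much as that of Atf4 is, was at 11.03 and 15.3 RPKM with control siRNA and at 12.8 and 13.7 RPKM after Hnrnpk siRNA. The Hnrnpk siRNA values fell between the controls. Its log2 change of 0.029 (SE 0.13) was not called, and it became -0.20 without control replicate 1 and 0.26 without control replicate 2, each of them called. Cebpb (ENSMUSG00000056501, chromosome 2, 167688915 to 167690418, plus strand) encodes a dimer partner of ATF4 and CHOP. It was at 18.3 and 24.0 RPKM with control siRNA and at 20.5 and 27.3 RPKM after Hnrnpk siRNA, so the libraries of the groups alternated in order. Its log2 change of 0.17 (SE 0.14) was not called; it was called without control replicate 2 (0.37) and without Hnrnpk siRNA replicate 1 (0.38), and was -0.019 without control replicate 1 and -0.027 without Hnrnpk siRNA replicate 2. Tmem189, on the opposite strand, overlaps 312 bases (20.7%) of the Cebpb exons, and fell from 20.5 and 19.6 to 15.2 and 16.5 RPKM (log2 change -0.33, limma adjusted p = 0.00226).

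Nupr1 and Trib3 encode regulators that act with or against these factors. Nupr1 (ENSMUSG00000030717, chromosome 7, 126623249 to 126630861, minus strand), a small stress-induced nuclear protein, was at 5.32 and 9.53 RPKM with control siRNA and at 11.6 and 12.1 RPKM after Hnrnpk siRNA. The higher control came close to the Hnrnpk siRNA libraries, and the log2 change of 0.70 (SE 0.19) was 0.30 without control replicate 1 and 1.09 without control replicate 2. Trib3 (ENSMUSG00000032715, chromosome 2, 152337422 to 152344032, minus strand), a pseudokinase that inhibits ATF4 and CHOP, was at 18.9 and 40.3 RPKM with control siRNA and at 50.0 and 55.3 RPKM after Hnrnpk siRNA. The groups did not overlap, but the gap between the controls was wider than that from the higher control to the Hnrnpk siRNA libraries. The log2 change of 0.92 (SE 0.26) was 0.38 without control replicate 1 and 1.45 without control replicate 2.

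Among the effectors, Ppp1r15a and Sesn2 were the regulators with the closest control libraries. Ppp1r15a (ENSMUSG00000040435, chromosome 7, 45522916 to 45526268, minus strand), the phosphatase subunit GADD34, was at 14.5 and 15.5 RPKM with control siRNA and at 20.4 and 23.0 RPKM after Hnrnpk siRNA. Sesn2 (ENSMUSG00000028893, chromosome 4, 132492032 to 132510501, minus strand), a leucine sensor that restrains mTORC1, was at 53.4 and 60.9 RPKM with control siRNA and at 93.6 and 96.4 RPKM after Hnrnpk siRNA. Both groups were well apart for these genes, with log2 changes of 0.52 (SE 0.077) and 0.73 (SE 0.074), and Sesn2 is also a known p53 target. Chac1 (ENSMUSG00000027313, chromosome 2, 119351229 to 119354381, plus strand), an enzyme that degrades glutathione, was at 8.96 and 26.7 RPKM with control siRNA and at 11.7 and 13.1 RPKM after Hnrnpk siRNA. Both Hnrnpk siRNA libraries lay between the controls. Its log2 change of -0.32 (SE 0.36) was not called, while it was called lower without control replicate 1 (-1.08) and higher without control replicate 2 (0.45).

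In order of RPKM, which is per length, the controls ran Atf4, Sesn2, Trib3, Cebpb, Chac1, Ppp1r15a, Atf5, Ddit3, Nupr1 and Atf3. The ranges of neighbours from Trib3 to Nupr1 overlapped, so their order there does not exceed the spread. After Hnrnpk siRNA the order was Atf4, Sesn2, Ddit3, Trib3, Cebpb, Ppp1r15a, Atf5, Chac1, Nupr1 and Atf3. Only Cebpb with Ppp1r15a, Atf5 with Chac1 and Chac1 with Nupr1 then overlapped as neighbours.

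**Figure D2:**
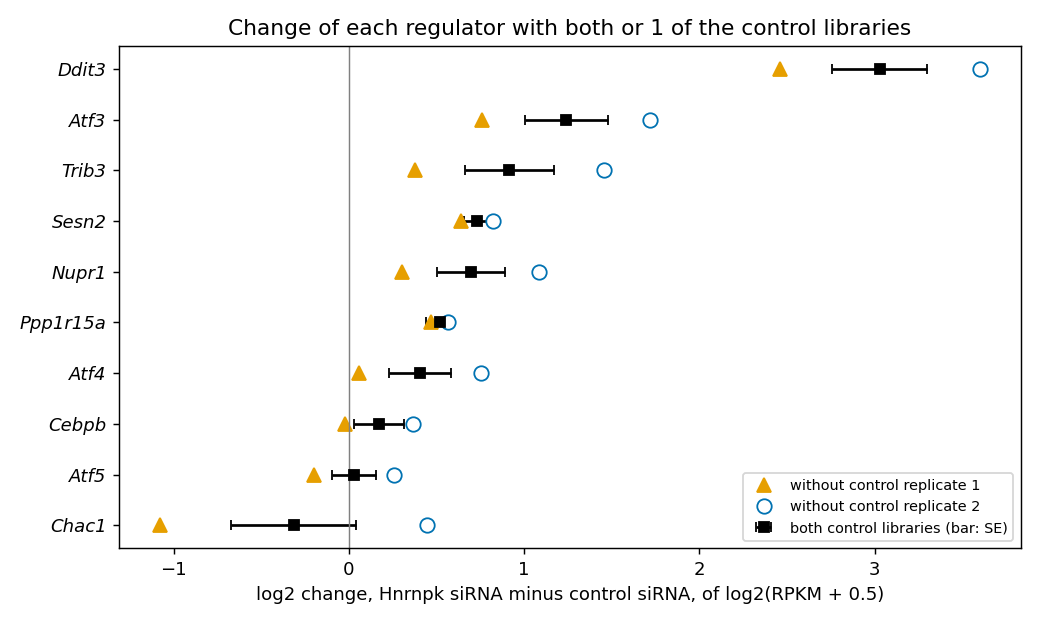
Log2 change (Hnrnpk siRNA minus control siRNA, of log2(RPKM + 0.5)) of each regulator with both control libraries (squares, bars are SE) or with 1 of them left out. Ddit3 stays between 2.46 and 3.60, while Chac1 goes from -1.08 to 0.45.

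All 10 regulators were higher in control replicate 2 than in control replicate 1, as were 42.7% of the genes tested. The choice of the regulators drew on this difference, so the ranks and counts below describe them and are not independent evidence. The median difference was 0.74 on the log2 scale for the 10, beside -0.023 over all genes tested, where the 5th and 95th percentiles were -0.295 and 0.20. Ranked by this difference, the 5 genes with the largest values among the 12486 were Chac1, Ddit3, Gm10180, Trib3 and Atf3, so 4 of the 5 were regulators; Gm10180 was named after its values were seen. Nupr1 ranked 10, Atf4 15, Atf5 56, Cebpb 83, Sesn2 724 and Ppp1r15a 2199. A difference of at least 1 on the log2 scale was reached by 4 genes, of which 3 were regulators. In 6 of the 10 (Atf4, Atf5, Cebpb, Nupr1, Trib3 and Chac1) the difference between the control libraries was larger than the change between the groups. All 10 were also higher in Hnrnpk siRNA replicate 2 than in replicate 1, as were 57.8% of genes tested, by 0.041 (Sesn2) to 0.40 (Cebpb). The labels give no batch, and what separated the control libraries was not tested. Without control replicate 1, 6 of the 10 were called higher (31.9% of all genes tested), the same 6 as with all libraries, and 2, Atf5 and Chac1, were called lower (33.5%). Without control replicate 2, all 10 were called higher (32.3%) and 0 lower (36.1%). In these fits the lone control is assumed to vary like the other group.

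**Figure D3:**
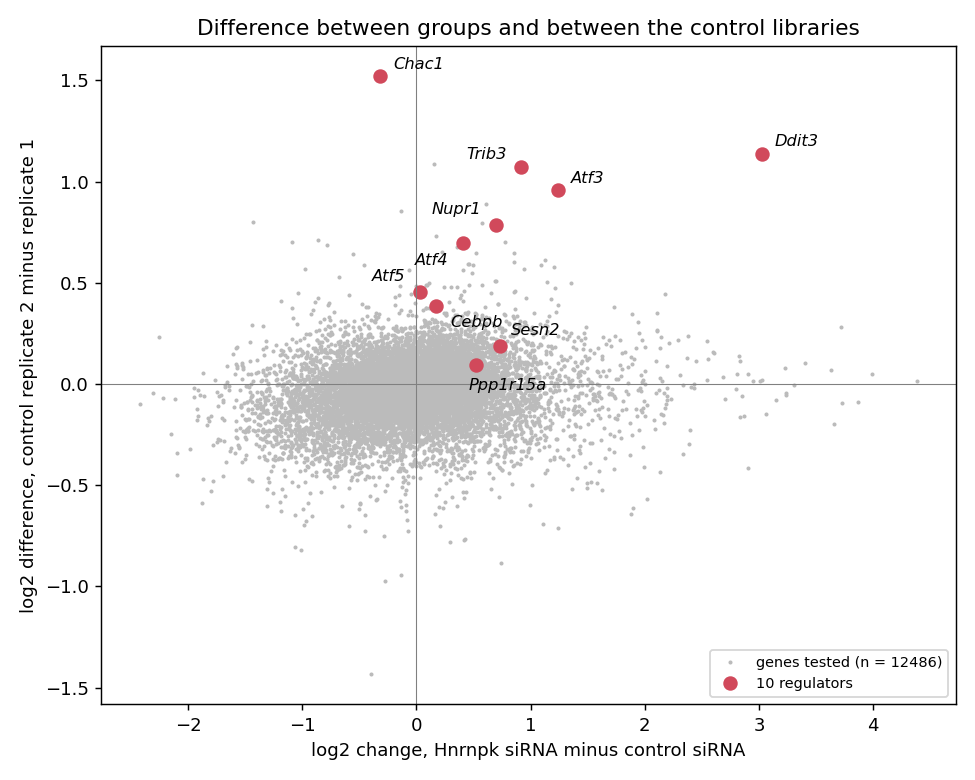
Each point is 1 of 12486 genes tested: the log2 change between the groups (horizontal) and the log2 difference of control replicate 2 minus replicate 1 (vertical). The regulators, in red, all lie above 0 on the vertical axis, with Chac1 highest at 1.52 and Ddit3 farthest right among them at 3.03.

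The kinases and the eIF2 machinery upstream of Atf4 changed in both directions. Of 19 tested genes of that list, 10 were called higher and 4 lower (against 32.2% and 35.0% of genes tested). The median log2 change was 0.17. Eif2ak1, the heme-regulated kinase, rose from 22.4 ± 0.624 to 27.3 ± 0.123 RPKM, and Eif2ak3 (PERK, the kinase of the endoplasmic reticulum) rose from 9.20 ± 0.869 to 11.6 ± 0.215 RPKM, with SD over 2 libraries (log2 changes 0.28 and 0.32, highest limma adjusted p = 0.00598). Eif2ak4 (GCN2, which senses uncharged tRNA) fell from 10.5 ± 0.393 to 6.69 ± 0.00352 RPKM and its activator Gcn1l1 from 24.7 ± 0.359 to 18.6 ± 0.934 RPKM, while Impact, an inhibitor of GCN2, rose from 32.5 ± 0.318 to 50.3 ± 0.0607 RPKM (SD over 2 libraries). The log2 changes of these 3 genes were -0.61, -0.40 and 0.62 (highest limma adjusted p = 0.000500). Eif2ak2 (PKR, which senses double-stranded RNA) fell from 3.88 to 3.24 RPKM (log2 change -0.23, limma adjusted p = 0.0317). That call was lost with quantile normalization (log2 change -0.14, limma adjusted p = 0.139) and with no filter on low values (limma adjusted p = 0.0532). It was also lost without Hnrnpk siRNA replicate 1 (log2 change -0.26) or replicate 2 (-0.20). The Eif2ak3 call was lost with no filter on low values (limma adjusted p = 0.0805). Ppp1r15b, the constitutive counterpart of Ppp1r15a, rose by 0.38, and Nck1, an adaptor linked to eIF2 dephosphorylation, rose by 0.40 on the log2 scale. Eif2b3, an eIF2B subunit, fell by 0.29. Of the other eIF2B subunits, Eif2b2 (0.32) and Eif2b5 (0.17) were called higher, and Eif2b1 and Eif2b4 were not called.

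Among 27 tested basic leucine zipper partners and relatives of ATF4, 14 were called higher and 6 lower (against 32.2% and 35.0% of genes tested). Their median log2 change was 0.21. The immediate early factors Jun and Fos rose from 1.92 ± 0.132 to 4.30 ± 0.193 RPKM and from 0.931 ± 0.188 to 2.21 ± 0.0265 RPKM, and Creb3, a membrane-bound factor, rose from 5.85 ± 0.139 to 8.81 ± 0.420 RPKM (SD, n = 2 each). Batf3 fell from 4.19 ± 0.0460 to 1.64 ± 0.0190 RPKM, Cebpa from 1.66 ± 0.158 to 0.614 ± 0.0412 RPKM and Junb from 16.1 ± 1.504 to 11.3 ± 1.10 RPKM (SD, n = 2 each). The highest limma adjusted p of these 6 was 0.000991. With no filter on low values the Junb call was lost (limma adjusted p = 0.0702). Of the 27 tested, 12 were higher in control replicate 2 than in control replicate 1, beside 42.7% of all genes tested. The median difference of the 27 was -0.014 on the log2 scale. Of 5 tested paralogs of the regulators, Sesn1 was called higher (log2 change 0.37) and 4 were called lower, among them Sesn3 (-0.68), Trib2 (-0.50) and Trib1 (-0.37). The Sesn1 call was lost without Hnrnpk siRNA replicate 2 (limma adjusted p = 0.0626).

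The amino acid genes that ATF4 is known to activate were mostly lower after Hnrnpk siRNA. Of 17 tested amino acid synthesis and one-carbon genes, 12 were called lower and 4 higher (against 35.0% and 32.2% of genes tested). The median log2 change was -0.45. Pycr1, a proline synthesis enzyme, fell from 26.8 and 23.6 RPKM in the control libraries to 6.51 and 6.01 RPKM (log2 change -1.92, SE 0.082, limma adjusted p = 1.45e-07). Phgdh, which opens serine synthesis, fell from 118 and 121 to 44.8 and 50.6 RPKM, and Pck2, mitochondrial phosphoenolpyruvate carboxykinase, from 23.5 and 31.3 to 11.5 and 11.7 RPKM (log2 changes -1.32 and -1.19, highest limma adjusted p = 1.54e-05). Asns, asparagine synthetase, went the other way, rising from 240 and 230 to 311 and 291 RPKM (log2 change 0.35, limma adjusted p = 0.00128), as did Got1 (0.27) and Cth (0.25). The number called higher was 2 without control replicate 1 and 2 without Hnrnpk siRNA replicate 1, and the Cth call was lost in both, as well as without Hnrnpk siRNA replicate 2 (limma adjusted p = 0.231, 0.0944 and 0.0678).

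Of 10 tested amino acid transporters, 6 were called lower and 0 higher by limma (0 higher at an unadjusted p under 0.05). Among genes tested, 35.0% were called lower and 32.2% higher. The median log2 change of the transporters was -0.25. The neutral amino acid carriers Slc1a4 and Slc1a5 fell from 17.5 and 28.8 to 10.2 and 10.5 RPKM and from 23.4 and 27.9 to 12.9 and 13.4 RPKM, and the cationic carrier Slc7a3 from 53.7 and 66.5 to 33.2 and 33.1 RPKM. Their log2 changes were -1.09, -0.93 and -0.84 (highest limma adjusted p = 0.000405). The number called lower was 3 without Hnrnpk siRNA replicate 2, and 1 transporter was called higher without control replicate 2. Among 13 aminoacyl-tRNA synthetase and tRNA export genes, 8 were called lower and 1 higher (against 35.0% and 32.2% of genes tested). Their median was -0.29. Eprs, Lars and Yars fell by 0.85, 0.70 and 0.59 on the log2 scale, and Aars rose from 128 and 148 to 183 and 182 RPKM (log2 change 0.41, limma adjusted p = 0.00107). Control replicate 2 exceeded control replicate 1 in all 10 transporters, all 13 genes of the synthetase list and 12 of the 17 synthesis genes. The share over all genes tested was 42.7%. Median differences of these lists were 0.29, 0.11 and 0.17 on the log2 scale. The regulators were chosen on the difference between the control libraries, and the lists with earlier results known, so what follows is a description. Most of these targets shared the regulators' direction of difference between the control libraries. Pycr1 (-0.18) and Asns (-0.058) were among the synthesis genes that did not. Most called genes of the synthesis, transporter and synthetase lists went down between the groups, which does not cover the stress effectors below. The called regulators went up, but they were selected on that change.

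Stress effectors downstream of ATF4 and CHOP were mostly higher. Of 13 tested, 8 were called higher and 2 lower (against 32.2% and 35.0% of genes tested). The median log2 change was 0.52. Gdf15, a secreted stress cytokine and also a p53 target, rose from 3.21 and 4.23 to 14.3 and 15.8 RPKM (log2 change 1.89, SE 0.11, limma adjusted p = 9.43e-07). Ddit4, an mTORC1 inhibitor, rose from 16.2 and 14.0 to 35.6 and 41.9 RPKM, and Sqstm1, the autophagy receptor p62, from 102 and 88.7 to 192 and 199 RPKM (log2 changes 1.33 and 1.03, highest limma adjusted p = 3.47e-06). The secreted glycoprotein gene Stc2 fell from 4.20 and 7.07 to 2.72 and 3.25 RPKM, and Car6, a carbonic anhydrase induced by CHOP, fell from 4.62 and 4.03 to 2.38 and 2.55 RPKM (log2 changes -0.78 and -0.70, highest limma adjusted p = 0.00410). The log2 change of Stc2 was -1.13 without control replicate 1 and -0.44 without control replicate 2. Of the 13 tested effectors, 5 were higher in control replicate 2 than in control replicate 1, beside 42.7% of all genes tested. The median difference of the effectors was -0.053 on the log2 scale.

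Of 20 genes of the other arms of the unfolded protein response, which act through XBP1 and ATF6, 13 were called higher and 1 lower. Among genes tested, 32.2% were called higher and 35.0% lower. The median log2 change of the list was 0.46. Xbp1 itself, outside this list, fell from 41.0 and 40.1 to 30.1 and 29.0 RPKM (log2 change -0.45, limma adjusted p = 0.000151). Atf6 and Atf6b were called higher (0.38 and 0.21), and Ern1, which is in the list, was not called (-0.18). Dnajb9 rose from 9.94 and 9.25 to 22.3 and 21.5 RPKM, Derl3, of endoplasmic reticulum degradation, from 3.58 and 3.55 to 8.38 and 8.30 RPKM, and the chaperone Calr from 312 and 292 to 605 and 634 RPKM (log2 changes 1.15, 1.12 and 1.04, highest limma adjusted p = 2.25e-06). Sdf2l1, a chaperone cofactor of the same compartment, fell from 37.1 and 33.1 to 18.5 and 22.8 RPKM (log2 change -0.76, limma adjusted p = 0.000108). The number called lower was 3 without control replicate 2. In this list 7 of 20 genes were higher in control replicate 2 than in control replicate 1, beside 42.7% of genes tested. The median difference of the list was -0.083 on the log2 scale.

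**Figure D4:**
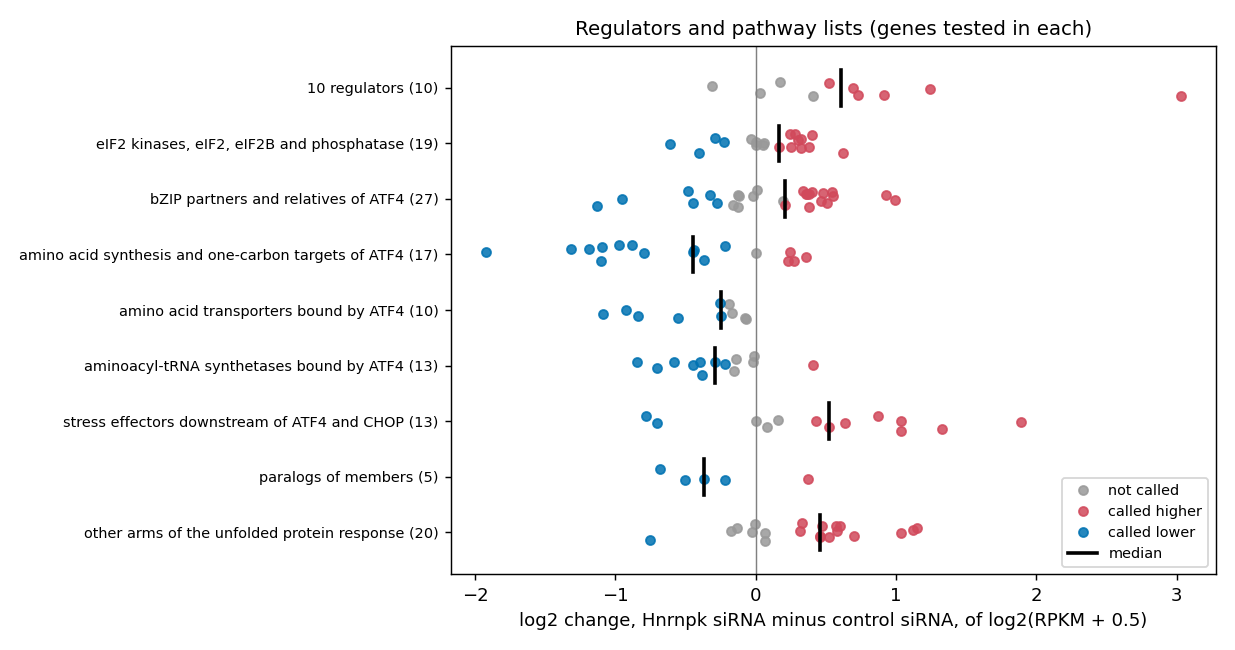
Log2 change (Hnrnpk siRNA minus control siRNA) of each tested gene of the regulators and of 8 pathway lists, coloured by limma's call at an adjusted p under 0.05; black lines are medians. Medians are above 0 for the regulators (0.61), the stress effectors (0.52) and the other unfolded protein response genes (0.46), and below 0 for the amino acid synthesis (-0.45), transporter (-0.25) and synthetase (-0.29) lists.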

How the data were processed

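The authors deposited RPKM values per gene, 1 column for each library. BWA, SAMtools and mm9 are named in the submitters' processing notes, with no version or role; the counting tool, annotation and strand setting are not stated there or in the labels. Poly(A) selection and rRNA depletion are each named in the labels for these libraries, so the selection step is unsettled. Values were analysed as log2(RPKM + 0.5), which understates changes of low genes. The 12486 genes averaging 0.5 RPKM or more entered limma (version 3.58.1, under R 4.3.3, mean-variance trend, two-sided), with Benjamini-Hochberg adjustment across the whole set. The procedure was run on simulated data with few changed genes and independent noise. Those data held no shared difference between the control libraries, so they do not check the fit under that condition or with most genes called. The labels call the libraries biological replicates, without naming separate cultures. Positions, overlaps and GC content came from GENCODE M21 (GRCm38), matched by identifier. Longest transcripts were compared by BLAST 2.17.0 at 95% identity over at least 100 bases. Apart from the overlapping loci of Ddit3 and Cebpb, no regulator shared sequence with another gene. The regulators and the pathway lists were chosen with earlier results of these data known. The text names all 10 regulators, Hnrnpk, the 4 eIF2 kinases, and up to 3 largest called rises and falls without overlap in each list. Xbp1, Atf6, Atf6b, Ern1 and the eIF2B subunits besides Eif2b3 were named after their values were seen. Cebpd, Nupr1l, Tcstv1 and Tcstv3 were not analysed here. Alternatives changed the added value, filter, scaling, variance trend, GC trend, replicate block and libraries used.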

Additional observations from a re-analysis of the deposited data

How the results depend on the processing

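Ddit3, Sesn2 and Ppp1r15a kept their direction and call under all 13 alternatives. Hnrnpk did so too, with log2 changes of -1.83 to -1.70. With no filter on low values, 3 regulators were called higher instead of 6, the calls of Atf3 (log2 change 1.24), Nupr1 (0.70) and Trib3 (0.92) being lost, and the counts were 2 higher for amino acid synthesis, 2 lower for transporters, 0 higher for synthetases, 1 lower for stress effectors, and 0 higher and 2 lower for paralogs; the cause was not tested. Atf4 was called with median-ratio scaling (0.42), with GC trends removed (0.48) and with the replicate block (0.41). Cebpb was called with GC trends removed (0.50) and with the replicate block (0.17), which called 8 regulators higher. The replicate numbers share no stated origin, and the differences within the groups correlated at 0.0267 across genes. Amino acid synthesis genes called higher numbered 2 without the variance trend and 2 with GC trends removed. Leaving out 1 library at a time gave log2 changes of 0.058 to 0.76 for Atf4, -0.20 to 0.26 for Atf5 (-0.018 without Hnrnpk siRNA replicate 2), -0.027 to 0.38 for Cebpb (-0.019 without control replicate 1) and -1.08 to 0.45 for Chac1. It gave 6 to 10 regulators called higher and 0 to 2 lower, 2 to 5 synthesis genes higher, 0 to 1 transporters higher and 3 to 9 lower, 0 to 1 paralogs higher, and 1 to 3 other unfolded protein response genes lower. Depth was read only as steps between low values, so no counting interval is given, and 2 libraries a group limit the precision.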
